A study of Homo sapiens with 9 samples.

Results

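Actin genes and genes driven by serum response factor (SRF) were followed in HepG2, an epithelial line derived from a human liver tumour. The 10 genes are ACTA1, ACTB, ACTG1, SRF, TAGLN, TAGLN2, MYL9, VCL, CCN1 and CCN2, taken by gene name from a table of 60612 genes. They were chosen by values measured in these same libraries, so their levels and differences are given as a description. How many were called in a fit across all genes is printed as a count, and nothing is supported with it. Cells were given 50 µM PQY09, 50 µM PQY23_1 or 0.1% DMSO, the solvent control, and 3 libraries of total RNA were sequenced per group. By the study's title PQY09 is Butyrolactone I, which fungi make and which is known to block cyclin dependent kinases. PQY23_1 is described there as a derivative. The study looked for targets of these compounds. The exposure time is not given in the sources used here, and no genotype, allele or further agent is named for any group. HepG2 is 1 tumour-derived line, and no label says that libraries of 1 group stem from separate cultures. The p-values then cover only the spread between these samples, which may be technical.

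SRF is a transcription factor that binds a short DNA motif called the CArG box. It works with 2 kinds of partner. Myocardin-related transcription factors (MRTF) are held by free actin monomers and released when actin polymerises, so that genes for actin and its binding proteins are read when free actin is low. Ternary complex factors, phosphorylated by the ERK kinase, join SRF at immediate early genes such as FOS and EGR1. Tension in the actin cytoskeleton also acts on the coactivators YAP and TAZ, which bind TEAD transcription factors, and CCN1 and CCN2 are textbook targets of both routes. In liver, CCN2 is known for its part in fibrosis.

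Promoters from RefSeq (GRCh38.p14, 250 bases before to 50 after the annotated start) were matched for 6 of the 10 genes, ACTA1, ACTG1, SRF, TAGLN2, VCL and CCN2. The stretches below are shown because they hold the motifs of the factors that name these genes. Each is read 5′ to 3′ on the strand of its gene with the match in capitals. The CArG box was searched on both strands, and it is found in 1.29% of 27305 promoters of the same length. It begins 97 bases before the start of ACTA1, 94 before that of ACTG1, and 30 and 10 before that of SRF itself. Distances here and below are from the RefSeq start. For ACTG1 and VCL that start lies inside the range of the gene table printed further down, so their windows lie within that range.
ACTA1 CArG box, chr1:229434152-229434221, minus strand: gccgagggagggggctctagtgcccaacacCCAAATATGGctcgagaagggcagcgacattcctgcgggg
ACTG1 CArG box, chr17:81512854-81512923, minus strand: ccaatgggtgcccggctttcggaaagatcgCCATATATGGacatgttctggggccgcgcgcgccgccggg
SRF, farther CArG box, chr6:43171209-43171268, plus strand: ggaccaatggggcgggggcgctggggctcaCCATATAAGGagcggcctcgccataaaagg
SRF, nearer CArG box, chr6:43171229-43171268, plus strand: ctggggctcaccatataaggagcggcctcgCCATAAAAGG

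The TEAD motif, searched as GGAATG or its complement CATTCC, is found in 14% of the same 27305 promoters. CCN2 holds 3 matches, which begin 169, 104 and 95 bases before its start. ACTA1 holds 2, at 70 and 47 bases, and VCL holds 1, at 171 bases. No match of the CArG box was found in the TAGLN2, VCL and CCN2 windows, and none of the TEAD motif in those of ACTG1, SRF and TAGLN2, which says only that these letters are not in those windows. No CArG match overlaps a TEAD match. A match describes the sequence and is not a measurement of binding.
CCN2, farthest TEAD motif, chr6:131951506-131951571, minus strand: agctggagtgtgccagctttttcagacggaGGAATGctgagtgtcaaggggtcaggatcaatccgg
CCN2, middle TEAD motif, chr6:131951441-131951506, minus strand: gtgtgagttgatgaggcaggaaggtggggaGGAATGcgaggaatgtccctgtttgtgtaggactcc
VCL TEAD motif, chr10:73997915-73997980, plus strand: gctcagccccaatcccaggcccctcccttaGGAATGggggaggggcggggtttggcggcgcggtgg

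The deposited counts summed to between 85050531 and 107538450 per library, with 23192 to 24256 genes detected. Levels below are TMM-scaled counts divided by library size (CPM), and comparisons between genes use FPKM, which divides by gene length. All 8 hepatocyte and HepG2 markers were above 1 CPM in every group, and ALB, the plasma protein albumin, lay between 1517 and 1915 FPKM. The summed level of 9 fibroblast and stellate cell markers was 7.76 to 8.10 CPM under DMSO, 5.09 to 6.22 under PQY09 and 5.55 to 6.83 under PQY23_1. COL1A2, which encodes a fibrillar collagen chain, was at 0 in all 9 libraries. PDGFRB and COL1A1 were above 0 in all 9, at up to 5.14 and 2.71 CPM. In each group 2 markers of this list averaged above 1 CPM. The 8 muscle markers summed to 3.07 to 3.63, 2.67 to 2.91 and 2.30 to 3.44 CPM. The myogenic factors MYOD1 and MYOG were at 0 in all 9 libraries. CKM was above 0 in all 9, at up to 2.44 CPM, and 1 of the 8 averaged above 1 CPM in each group. The 6 endothelial and blood cell markers summed to 27.6 to 35.7, 28.1 to 37.0 and 40.9 to 53.8 CPM. CD68, a lysosomal protein used as a macrophage marker, reached 51.5 CPM in that list, with means of 11.3 FPKM under DMSO, 11.96 under PQY09 and 16.7 under PQY23_1, while PTPRC, which encodes the leukocyte protein CD45, was at 0 in 8 of the 9 libraries. The 8 hepatocyte markers summed to 26746 to 29235 CPM under PQY23_1, below the 30904 to 33596 under DMSO and the 30035 to 32452 under PQY09. Mitochondrial transcripts took 13.4% ± 0.742 (SD, n = 3) of the control counts, 13.3% ± 1.11 with PQY09 and 15.8% ± 1.10 with PQY23_1. The part of these shifts in the results below was not tested. In bulk RNA, fewer cells of a type and less RNA per cell cannot be told apart.

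All 10 genes passed the filter on low counts that left 20157 genes for testing. In control cells the cytoplasmic actins stood far above the rest. ACTG1 averaged 407 FPKM and ACTB 333 FPKM, which placed them 68th and 79th among all genes. CCN2 followed at 43.7 FPKM, SRF at 17.8, TAGLN2 at 14.5 and MYL9 at 12.3. VCL stood at 6.87 FPKM, TAGLN at 4.95, CCN1 at 4.18 and ACTA1 at 2.55. In this order TAGLN2 and MYL9 were the only neighbours whose DMSO libraries overlapped. Under PQY09, CCN1 moved above VCL, at 11.2 against 7.17 FPKM, and ACTA1, at 6.46 FPKM, overlapped VCL and stood above TAGLN at 4.41. Under PQY23_1, ACTA1 at 1.58 FPKM and TAGLN at 2.79 stood at the bottom, TAGLN now below CCN1, and SRF with TAGLN2, TAGLN2 with MYL9, and CCN1 with VCL overlapped.

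**Figure D1:**
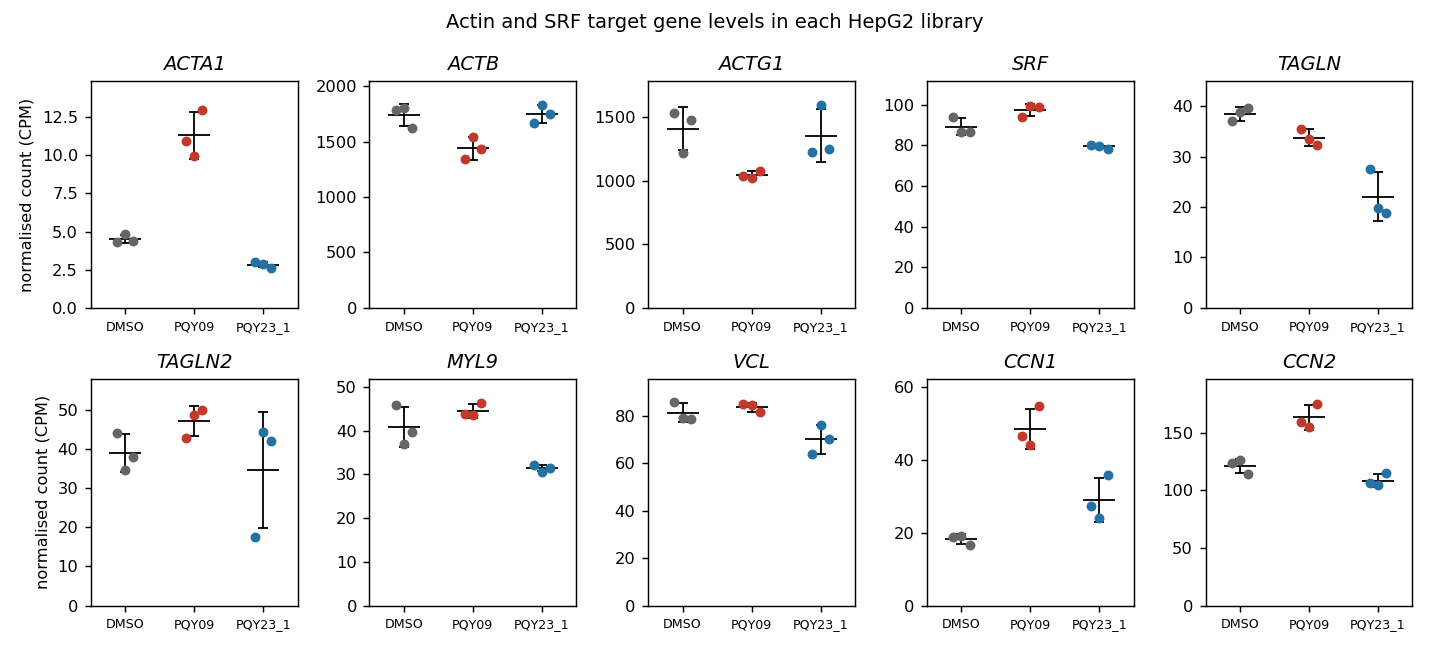
Normalised counts (CPM, y axes from 0) of the 10 genes in each library under DMSO, PQY09 and PQY23_1. Points are libraries, horizontal lines are means and bars are the SD of 3 libraries. ACTA1 lies between 9.98 and 13.0 CPM under PQY09 and between 2.64 and 3.01 under PQY23_1, and TAGLN2 has 1 PQY23_1 library at 17.5 CPM.

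ACTA1 encodes skeletal muscle alpha-actin, the actin of the sarcomere (chromosome 1, 229431245 to 229434098, minus strand, hg38). Its 3 DMSO libraries held 4.31, 4.85 and 4.38 CPM. The PQY09 libraries held 10.9, 9.98 and 13.0 CPM, and the PQY23_1 libraries 3.01, 2.88 and 2.64 CPM. Every PQY09 library was above, and every PQY23_1 library below, all control libraries. The mean went from 4.51 ± 0.292 CPM (SD, n = 3) to 11.3 ± 1.54 with PQY09, a log2 fold change of 1.32 ± 0.13 (SE; 95% interval 1.03 to 1.62), or 2.50-fold. With PQY23_1 it was 2.84 ± 0.186 CPM, a log2 change of -0.67 ± 0.13 (-0.96 to -0.37). Leaving out 1 library at a time gave log2 values of 1.20 to 1.40 for PQY09 and of -0.71 to -0.61 for PQY23_1.

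The cytoplasmic actins, which form the cortex and stress fibres of nonmuscle cells, were lower under PQY09 in every library. ACTB (chromosome 7, 5526409 to 5563902, minus strand) held 1783, 1802 and 1623 CPM under DMSO. It held 1340, 1541 and 1433 CPM under PQY09, and 1670, 1825 and 1745 under PQY23_1. All PQY09 libraries were below the controls, while those of PQY23_1 overlapped them. The log2 difference was -0.27 ± 0.07 (-0.43 to -0.12) for PQY09 and 0.01 ± 0.07 (-0.15 to 0.16) for PQY23_1. ACTG1 (chromosome 17, 81509971 to 81514640, minus strand) held 1533, 1216 and 1479 CPM under DMSO, 1041, 1024 and 1081 under PQY09, and 1225, 1595 and 1251 under PQY23_1. Here too PQY09 lay below every control and PQY23_1 overlapped. On the log2 scale the difference was -0.43 ± 0.12 (-0.69 to -0.16) for PQY09 and -0.05 ± 0.12 (-0.32 to 0.21) for PQY23_1.

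The make-up of actin mRNA was read from the FPKM of ACTA1, ACTA2, ACTB, ACTC1, ACTG1 and ACTG2. The summed actin level was 758 ± 40.1 FPKM (SD, n = 3) under DMSO, 610 ± 18.9 under PQY09 and 733 ± 75.8 under PQY23_1. Under DMSO, ACTG1 made up 53.6% ± 3.83 and ACTB 44.0% ± 3.88 of this sum, and the ratio of ACTG1 to ACTB was 1.23 ± 0.188. The ratio was 1.10 ± 0.09 under PQY09 and 1.17 ± 0.13 under PQY23_1, so the group means differed by less than the SD of the DMSO libraries. ACTA1 took 0.337% ± 0.0417 of the sum under DMSO, 1.06% ± 0.139 under PQY09 and 0.216% ± 0.0247 under PQY23_1. ACTA2, the smooth muscle alpha-actin, took 2.05% ± 0.093, 2.80% ± 0.123 and 2.11% ± 0.328. The ACTA1 and ACTA2 shares of the PQY09 libraries lay above those of every other library. ACTA2 itself held 58.4, 49.2 and 57.1 CPM under DMSO and 58.6, 57.5 and 62.2 under PQY09, and its change did not pass the edgeR quasi-likelihood test (log2 0.11 ± 0.08, adjusted p = 0.603). ACTC1 and ACTG2, the cardiac and the enteric actin, stayed below 0.14 CPM in every library. Over 100-base words, the annotated ACTB transcript shared 0.165% with the pseudogene ACTBP2, and ACTA1 and ACTG1 shared 0% with any other gene.

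**Figure D2:**
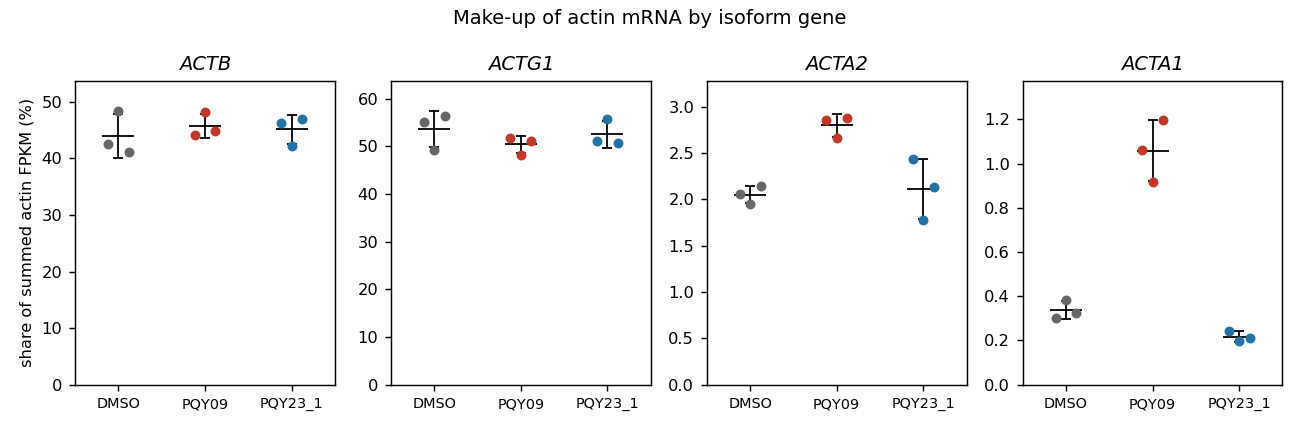
Share of the summed actin FPKM (%, y axes from 0, 1 scale per gene) taken by ACTB, ACTG1, ACTA2 and ACTA1 in each library. Points are libraries, lines are means and bars the SD of 3 libraries. ACTA1 lies near 1.06% under PQY09 against 0.337% under DMSO and 0.216% under PQY23_1.

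SRF itself (chromosome 6, 43171269 to 43181506, plus strand) differed little in size. It held 93.81, 86.6 and 86.5 CPM under DMSO, 93.83, 99.2 and 98.9 under PQY09, and 80.3, 79.5 and 78.4 under PQY23_1. The groups did not overlap, although the lowest PQY09 library and the highest control differed only in the fourth digit. In log2 units this was a difference of 0.13 ± 0.05 (0.01 to 0.25) for PQY09 and -0.16 ± 0.05 (-0.29 to -0.04) for PQY23_1.

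Among the cytoskeletal targets, TAGLN encodes transgelin, an actin-bundling protein of smooth muscle (chromosome 11, 117199370 to 117207464, plus strand). It held 37.0, 38.8 and 39.5 CPM under DMSO, 35.5, 33.5 and 32.2 under PQY09, and 27.6, 19.7 and 18.8 under PQY23_1. Both compounds lay below the controls, PQY23_1 the farthest. The fitted log2 difference was -0.80 ± 0.14 (-1.11 to -0.49) for PQY23_1, or 1.74-fold lower, and -0.19 ± 0.13 (-0.49 to 0.12) for PQY09. Leaving out 1 library at a time gave log2 values of -0.997 to -0.70 for PQY23_1. TAGLN overlaps PCSK7 on the other strand (mean count 3235), and whether counting used strand is not given in the sources used here, so reads of both genes cannot be told apart.

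TAGLN2 encodes the transgelin of nonmuscle cells (chromosome 1, 159918107 to 159925507, minus strand). It held 44.2, 34.6 and 38.0 CPM under DMSO, 43.0, 48.7 and 50.1 under PQY09, and 17.5, 44.4 and 42.1 under PQY23_1. PQY23_1 replicate 1 stood apart and the groups overlapped. The log2 difference was 0.28 ± 0.29 (-0.39 to 0.95) for PQY09 and -0.17 ± 0.29 (-0.84 to 0.50) for PQY23_1. Without PQY23_1 replicate 1 the second was 0.15, so that its sign rested on that library. Of its 100-base words, 1.59% are shared with the pseudogene TAGLN2P1.

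MYL9 encodes a regulatory light chain of nonmuscle and smooth muscle myosin (chromosome 20, 36541497 to 36551447, plus strand). It held 45.9, 36.9 and 39.6 CPM under DMSO, 43.7, 43.6 and 46.4 under PQY09, and 32.1, 30.7 and 31.5 under PQY23_1. PQY23_1 lay below every control, and PQY09 overlapped them. On the log2 scale the difference was -0.38 ± 0.08 (-0.57 to -0.18) for PQY23_1 and 0.13 ± 0.08 (-0.06 to 0.32) for PQY09. VCL encodes vinculin, which links actin to integrin and cadherin contacts (chromosome 10, 73995193 to 74120169, plus strand). It held 85.9, 79.2 and 78.9 CPM under DMSO, 84.9, 84.6 and 81.5 under PQY09, and 64.1, 76.2 and 70.3 under PQY23_1. As for MYL9, PQY23_1 lay below the controls and PQY09 overlapped them. In log2 units this was a difference of -0.21 ± 0.07 (-0.38 to -0.05) for PQY23_1 and 0.04 ± 0.07 (-0.12 to 0.21) for PQY09.

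CCN1 and CCN2 encode secreted matricellular proteins that bind integrins. CCN1 (chromosome 1, 85580761 to 85583950, plus strand) held 19.0, 19.3 and 16.7 CPM under DMSO. It held 46.7, 44.2 and 54.8 CPM under PQY09 and 27.4, 24.0 and 35.8 under PQY23_1. All 6 compound libraries were above the controls, and PQY09 was above PQY23_1 throughout. The fitted log2 difference was 1.41 ± 0.15 (1.06 to 1.75) for PQY09, or 2.65-fold, the largest of the 10 genes under either compound. It was 0.67 ± 0.15 (0.33 to 1.01) for PQY23_1, or 1.59-fold. CCN2 (chromosome 6, 131948176 to 131951372, minus strand) held 123.5, 125.8 and 113.8 CPM under DMSO, 159, 155 and 175 under PQY09, and 106, 104 and 115 under PQY23_1. PQY09 lay above the controls, while 1 PQY23_1 library overlapped them. The log2 difference was 0.43 ± 0.07 (0.27 to 0.59) for PQY09 and -0.16 ± 0.07 (-0.32 to 0.00) for PQY23_1. Leaving out 1 library at a time gave log2 values of 0.37 to 0.46 for PQY09.

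Counted over the 10 genes, edgeR's quasi-likelihood test across all genes called 3 higher with PQY09 (ACTA1, CCN1 and CCN2) and none lower, at an adjusted p below 0.05. The calls of ACTA1 and CCN1 held in all 9 leave-outs, and that of CCN2 in 4. At an unadjusted p below 0.05, 4 were higher and 2 lower. The share of all genes at that threshold is not given here, so such counts have no background. DESeq2 called 3 higher and 2 lower (ACTB and ACTG1), where it called 1464 of all genes. Of all 20157 genes, edgeR called 2.85%, 1.78% higher and 1.07% lower. The groups did not overlap for 4 of the 10 on the higher and 3 on the lower side, and for 24.4% of all genes. With PQY23_1, edgeR called 2 lower (ACTA1 and TAGLN) and none higher, where 2.55% of all genes were called, 1.51% higher and 1.04% lower. The ACTA1 call held in 2 of the 9 leave-outs and that of TAGLN in 4. At an unadjusted p below 0.05, 1 was higher and 5 lower. DESeq2 called 1 higher (CCN1) and 3 lower (ACTA1, TAGLN and MYL9), where it called 1468 of all genes. The groups did not overlap for 1 of the 10 on the higher and 5 on the lower side, and for 22.5% of all genes. The median log2 difference of the 10 genes was 0.13 for PQY09 and -0.17 for PQY23_1, against 0.00 and 0.01 for all genes. Both comparisons share the DMSO libraries, and the 10 genes were chosen with these values in view, so nothing is read from the counts.

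**Figure D3:**
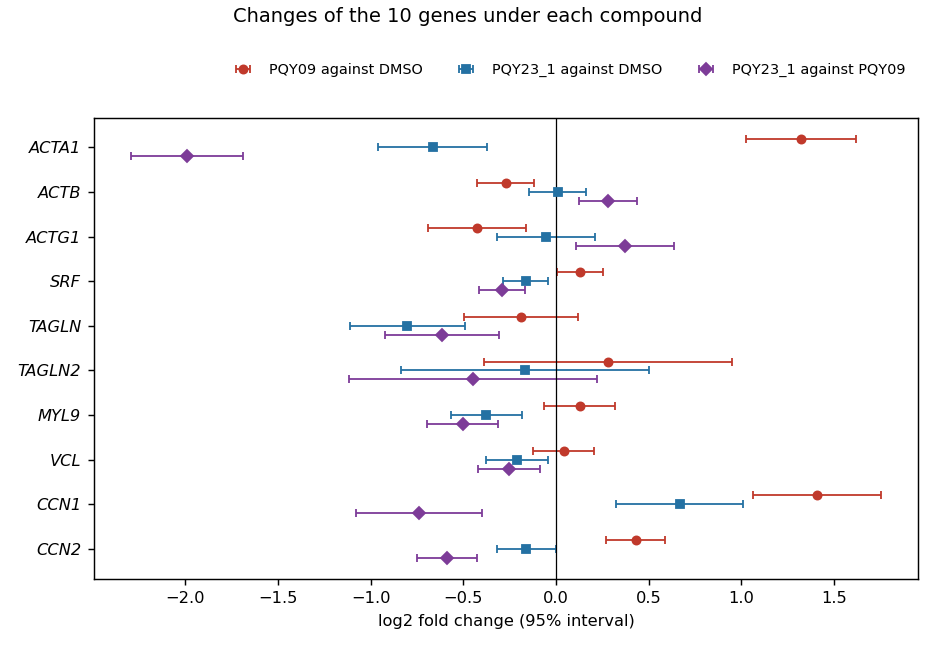
Log2 fold changes of the 10 genes (x axis) for PQY09 against DMSO (red circles), PQY23_1 against DMSO (blue squares) and PQY23_1 against PQY09 (purple diamonds). Bars are 95% intervals from the fit to 9 libraries. ACTA1 lies at 1.32 under PQY09 and -0.67 under PQY23_1, and CCN1 lies above 0 under both, at 1.41 and 0.67.

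The derivative was set against the parent compound at the same dose, 50 µM, as 1 pair. ACTA1 was 3.97-fold lower with PQY23_1 than with PQY09 (log2 -1.99 ± 0.13, -2.29 to -1.69). CCN1 differed by -0.74 ± 0.15 (-1.08 to -0.40) and CCN2 by -0.59 ± 0.07 (-0.75 to -0.43). MYL9 differed by -0.50 ± 0.08 (-0.70 to -0.31) and SRF by -0.29 ± 0.05 (-0.42 to -0.17). These 5 were called lower by edgeR and none higher. At an unadjusted p below 0.05, 7 were lower and 2 higher. DESeq2 called 6 lower (TAGLN besides these 5) and 1 higher (ACTB), where it called 1251 of all genes. As above, nothing is read from these counts. Of all genes, edgeR called 2.22%, 1.22% higher and 1.0% lower. With library totals in place of TMM the split over all genes was 195 higher and 297 lower, or 39.6% higher, against 54.9% in the TMM fit with 246 and 202.

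Leaving out 1 library at a time gave log2 values of -2.07 to -1.88 for ACTA1 and -0.63 to -0.54 for CCN2. They ran from -0.32 to -0.28 for SRF, -0.52 to -0.47 for MYL9 and -0.92 to -0.62 for CCN1 (log2). The calls of ACTA1 and CCN2 held in all 9 leave-outs. That of MYL9 held in 3, and those of SRF and CCN1 in 1 each. The cytoplasmic actins pointed upward, ACTB by 0.28 ± 0.07 (0.13 to 0.43) and ACTG1 by 0.37 ± 0.12 (0.11 to 0.64), with no overlap between the groups. TAGLN differed by -0.61 ± 0.14 (-0.92 to -0.31) and VCL by -0.25 ± 0.07 (-0.42 to -0.09), both without overlap. For TAGLN2 the interval of the difference ran from -1.12 to 0.22 around -0.45, which does not show that the compounds act alike. In all, 7 of the 10 were lower and 2 higher without overlap, against 22.0% of all genes in either direction. The median of the 10 was -0.48, and that of all genes -0.01.

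The genes whose pattern came nearest to that of CCN1 were sought among 10848 genes with a mean of at least 5 CPM. Likeness was the root mean square difference of log2 CPM centred on the DMSO mean over the 9 libraries. The nearest were CYP4F2, a fatty acid hydroxylase of the cytochrome P450 family, at 0.15, and AP1M2, a clathrin adaptor subunit of epithelial cells, at 0.19. ACSS2, which makes acetyl-CoA from acetate, followed at 0.23, then MVD, an enzyme of the mevalonate pathway, at 0.23, and the drug-metabolising CYP3A5 at 0.26. Their log2 differences from DMSO were 1.47 for CYP4F2, 1.33 for AP1M2, 1.64 for ACSS2, 1.22 for MVD and 1.11 for CYP3A5 with PQY09. With PQY23_1 they were 0.66, 0.57, 0.57, 0.43 and 0.88 in the same order.

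Other genes of these pathways were taken from 6 lists with 118 genes, of which 111 were tested. With PQY09, 13 were called, 9 higher and 4 lower, or 11.7%, where 2.85% of all genes were called. With PQY23_1, 13 were called, 12 higher and 1 lower, again 11.7%, against 2.55% of all genes. Between the compounds 12 were called, 9 higher and 3 lower, or 10.8%, against 2.22% of all genes. The lists were chosen with earlier results of these data known, so the shares called are a description. The adjusted p-values do not allow for that choice. These shares are edgeR's. DESeq2 called 19, 28 and 21 listed genes in the same order, where it called 1464, 1468 and 1251 of all genes. List counts at an unadjusted p below 0.05 have no share of all genes beside them. The lists describe what these genes did and support no statement about a pathway as a whole. Adjusted p-values below come from edgeR's quasi-likelihood test with Benjamini-Hochberg adjustment over all genes. Where leaving out a library or another setting ended a call named below, its adjusted p stayed at or below 0.158 and the sign did not change.

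Among the 12 immediate early genes driven by SRF, 7 rose with PQY09 and none fell, with a median log2 difference of 1.22 over the list. No member had a lower level at an unadjusted p below 0.05, and DESeq2 also called 7 higher and 0 lower. FOS, a subunit of the AP-1 factor, held 7.03, 5.12 and 2.45 CPM under DMSO and 22.4, 23.0 and 29.3 under PQY09 (log2 2.36 ± 0.34, adjusted p = 0.00894). The zinc finger factor EGR1 rose from 27.3 ± 6.93 to 114 ± 12.7 CPM (SD, n = 3; log2 2.06, adjusted p = 0.00133). The phosphatase DUSP1, which acts on MAP kinases, rose from 21.9 ± 3.57 to 85.7 ± 11.2 CPM (log2 1.97, adjusted p = 0.000365). FOSB, a second AP-1 subunit, also rose (log2 2.25, adjusted p = 0.0343), a call lost without DMSO replicate 2, PQY23_1 replicate 2 or any 1 PQY09 library.

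With PQY23_1, 5 of the 12 rose and none fell by edgeR (0 at an unadjusted p below 0.05), with a median of 0.997, while DESeq2 called 8 higher and 0 lower. FOS reached 18.3, 18.2 and 24.9 CPM (log2 2.07, adjusted p = 0.0176), DUSP1 63.1 ± 8.71 CPM (log2 1.53, adjusted p = 0.00232) and the nuclear receptor NR4A1 13.2 ± 0.74 against 6.28 ± 0.958 CPM (log2 1.08, adjusted p = 0.0113). EGR1 reached 55.6 ± 11.5 CPM (log2 1.03, adjusted p = 0.0348), a call kept only without DMSO replicate 1. The FOS call was lost without DMSO replicate 2 or PQY23_1 replicate 3, and that of NR4A1 without DMSO replicate 2. NR4A1 was also called higher with PQY09 (log2 1.22), in all 9 leave-outs. Between the compounds EGR1 was lower with PQY23_1 (log2 -1.04, adjusted p = 0.0354), a call that held only without DMSO replicate 1 or 3 or PQY23_1 replicate 3.

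The 42 genes of the actin cytoskeleton driven by SRF with MRTF showed no common direction. With PQY09, 1 rose and 2 fell by edgeR, and the median log2 difference was -0.04. At an unadjusted p below 0.05, 2 were higher and 5 lower, and DESeq2 called 1 higher and 3 lower. CALD1, which encodes the actin- and myosin-binding caldesmon, rose from 163 ± 9.81 to 245 ± 9.95 CPM (log2 0.59 ± 0.07, adjusted p = 0.0028). The crosslinker ACTN1 fell from 336 ± 33.7 to 242 ± 20.3 CPM (log2 -0.47, adjusted p = 0.0457), and the LIM protein PDLIM1 from 327 ± 10.2 to 258 ± 24.3 CPM (log2 -0.34, adjusted p = 0.0488). Both falls held in only 1 of 9 leave-outs, without PQY23_1 replicate 1 for ACTN1 and without PQY09 replicate 2 for PDLIM1.

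With PQY23_1, 4 of the 42 rose and none fell by edgeR, and the median was -0.01. At an unadjusted p below 0.05, 11 were higher and 5 lower, and DESeq2 called 7 higher and 4 lower. The calpain protease subunit CAPN2 rose from 38.7 ± 2.02 to 70.9 ± 2.20 CPM (log2 0.87, adjusted p = 0.000761). SH3BGRL3, a small protein with a thioredoxin-like fold, rose from 71.1 ± 8.12 to 117 ± 7.17 CPM (log2 0.72, adjusted p = 0.0176), a call lost without DMSO replicate 2 or 3 or PQY23_1 replicate 1. The LIM protein FHL2 (log2 0.62, adjusted p = 0.0387) and CALD1 (log2 0.38, adjusted p = 0.0252) rose as well. The FHL2 call held only without PQY09 replicate 1, and that of CALD1 was lost without DMSO replicate 2 or 3, PQY09 replicate 1, or PQY23_1 replicate 2 or 3. Between the compounds edgeR called 5 higher with PQY23_1 and none lower (4 lower at an unadjusted p below 0.05), with a median of 0.08, and DESeq2 called 5 higher and 1 lower. CAPN2 and SH3BGRL3 were each higher by a log2 value of 0.97 (adjusted p = 0.000337 and 0.0046) and FHL2 by 0.87 (adjusted p = 0.00889), in all 9 leave-outs. TGFB1I1, a focal adhesion adaptor, was higher by 0.62 (adjusted p = 0.0373), a call lost whichever library was left out.

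Of the 19 SRF partners and regulators tested, edgeR called 1 higher and 1 lower with PQY09 and 1 higher with PQY23_1, with medians of -0.14 and -0.07. At an unadjusted p below 0.05, 1 was higher and 5 lower with PQY09, and 5 higher and 3 lower with PQY23_1. DESeq2 called 1 higher and 3 lower with PQY09, and 3 higher and 1 lower with PQY23_1. RHOB, a small GTPase whose gene responds to stress, rose under both. It held 295, 280 and 287 CPM under DMSO, 528, 491 and 563 under PQY09, and 366, 344 and 371 under PQY23_1. The groups did not overlap in any pairing. It rose by 0.88 ± 0.06 with PQY09 (adjusted p = 0.000304) and by 0.33 ± 0.06 with PQY23_1 (adjusted p = 0.0306), and was lower with PQY23_1 than with PQY09 by -0.55 ± 0.06 (adjusted p = 0.00316). The rise with PQY23_1 held only without PQY09 replicate 2 or 3 or PQY23_1 replicate 2, and the other calls in all 9 leave-outs.

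The thymosins TMSB10 and TMSB4X, which bind free actin monomers, were higher with PQY23_1 than with PQY09. TMSB10 held 898, 739 and 759 CPM under PQY23_1 against 484, 471 and 535 under PQY09 (log2 0.68, adjusted p = 0.00521), with 590, 629 and 636 under DMSO. TMSB4X stood at 8.82 ± 0.945 against 5.42 ± 0.544 CPM (log2 0.70, adjusted p = 0.039), a call kept only without DMSO replicate 3. RHOA, MRTFA and MRTFB did not pass the test in any comparison. RHOA had log2 differences of 0.03 ± 0.07 with PQY09 and 0.00 ± 0.07 with PQY23_1 (adjusted p = 0.892 and 0.995), and MRTFA of -0.14 ± 0.09 and -0.10 ± 0.09 (adjusted p = 0.552 and 0.666). MRTFB ranged from 12.6 to 43.5 CPM within the DMSO group alone, so its change could not be judged.

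The 21 tested targets of YAP and TEAD, the list nearest to CCN1 and CCN2, had median log2 differences of -0.06 with PQY09 and -0.10 with PQY23_1. With PQY09 edgeR called 0 higher and 1 lower (0 and 6 at an unadjusted p below 0.05), and DESeq2 called 0 higher and 3 lower. AXL, a receptor tyrosine kinase, fell from 4.38 ± 0.0959 to 2.89 ± 0.323 CPM (log2 -0.60, adjusted p = 0.0431), a call lost whichever library was left out. With PQY23_1 the ecto-nucleotidase NT5E rose from 19.3 ± 1.42 to 32.8 ± 0.368 CPM (log2 0.77, adjusted p = 0.00414) and the membrane repair protein MYOF from 3.02 ± 0.254 to 5.91 ± 1.07 CPM (log2 0.97, adjusted p = 0.018). The LIM protein AJUBA fell from 113 ± 4.29 to 81.2 ± 1.52 CPM (log2 -0.47, adjusted p = 0.00314). The calls for NT5E and AJUBA held in all 9 leave-outs, and that for MYOF only without a PQY09 library or PQY23_1 replicate 3. At an unadjusted p below 0.05, 4 were higher and 5 lower with PQY23_1, and DESeq2 called 2 higher and 2 lower. For PQY23_1 against PQY09 these counts were 5 higher and 3 lower, both at an unadjusted p below 0.05 by edgeR and as called by DESeq2. Between the compounds NT5E (log2 0.999, adjusted p = 0.000905) and AXL (log2 0.89, adjusted p = 0.00849) were higher with PQY23_1 in all 9 leave-outs, and AJUBA was lower (log2 -0.25, adjusted p = 0.0393), lost whichever library was left out.

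None of the 14 YAP pathway genes was called in any comparison by edgeR. At an unadjusted p below 0.05, 1 was higher and 2 lower with PQY09, 1 higher and 3 lower with PQY23_1, and 0 between the compounds. DESeq2 called 1 lower with PQY09 and 1 higher with PQY23_1. YAP1 held 162 ± 15.9 CPM under DMSO, 139 ± 5.97 under PQY09 and 141 ± 9.55 under PQY23_1, with log2 differences of -0.22 and -0.19 (adjusted p = 0.25 and 0.298). WWTR1, which encodes TAZ, had PQY23_1 libraries at 31.4, 74.9 and 78.3 CPM, the low one again replicate 1, beside 73.1 to 73.4 under DMSO and 85.7 to 87.8 under PQY09. Its difference with PQY09 (log2 0.25, adjusted p = 0.761 by edgeR) was called once that library was left out (adjusted p = 0.0286, with a highest value of 0.863 over the alternatives). TEAD1 had DMSO libraries at 15.9, 57.6 and 48.2 CPM and did not pass the test (adjusted p = 0.851 and 0.95). The 3 other actins and actin-related genes tested, ACTA2, ACTR2 and ACTR3, gave no call by edgeR or DESeq2, and none at an unadjusted p below 0.05.

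**Figure D4:**
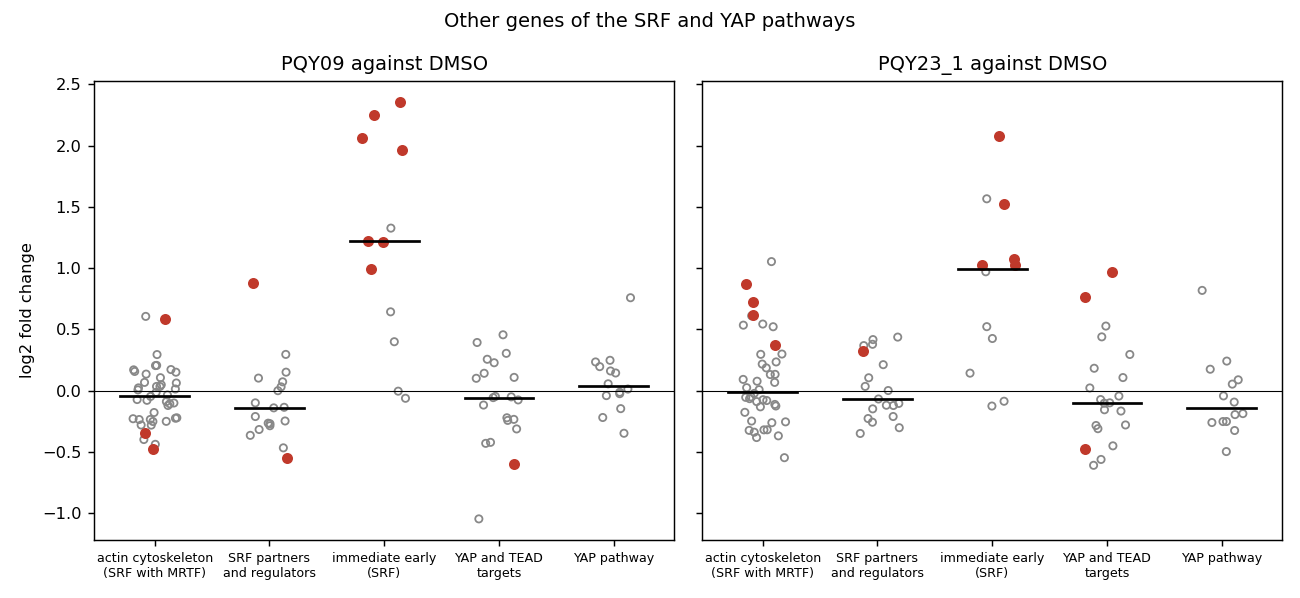
Log2 fold changes (y axis) of the listed genes outside the 10, for PQY09 (left) and PQY23_1 (right) against DMSO. Each point is a gene, filled red where edgeR called it at an adjusted p below 0.05, open where it did not, and black lines are list medians. The median of the immediate early genes lies at 1.22 and 0.997, and those of the other 4 lists drawn between -0.14 and 0.04. ACTA2, ACTR2 and ACTR3 are not drawn.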

How the data were processed

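RNA of HepG2 cells was measured in 9 libraries, 3 per group. The authors deposited 1 table with estimated counts (expected counts, whole numbers) and FPKM for each of 60612 genes and each library. FPKM is scaled by gene length and library size and reads 1e-04 where the count is 0. Per the submitters' processing notes, which give no roles, the tools were HISAT2 2.0.4, cutadapt 1.9, StringTie 1.3.4d, DESeq2 and edgeR, and the build was hg38. Neither strand setting nor read length is given in the sources used here. Low counts pile up at 4 (10696 values, against 4024 at 3 and 2277 at 5), so counts may not equal fragments, and intervals cover counting error only as far as they do.

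The rounded counts were scaled by TMM, filtered by filterByExpr (minimum count 10), and fitted in edgeR 4.0.16 (R 4.3.3) with a mean per group. The quasi-likelihood test and the 95% intervals used 6 residual degrees of freedom plus prior degrees of freedom borrowed across genes. The p-values were adjusted by Benjamini-Hochberg over 20157 genes, with calls at an adjusted p below 0.05. The SE is the log2 fold change divided by the square root of F. Gene overlap and shared words use GENCODE transcripts. Members and gene lists were chosen with earlier results of these data known. Named are the 10 members, up to 4 called genes per list, direction and comparison with at least 1 CPM, 7 core genes and the 5 nearest to the member with the largest change. Alternatives changed filter, scaling, tool (DESeq2 1.42.0, or limma 3.58.1 on log2 FPKM with a pseudocount of 1 or 0.1), samples fitted, a replicate block and counts divided by 4, and each of 9 libraries was left out. The values of 1 called SRF regulator are not reported here.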

Additional observations from a re-analysis of the deposited data

Results flagged for a closer look

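ACTA1 and SRF had all 3 PQY09 libraries above and all 3 PQY23_1 libraries below every DMSO library. The log2 difference between the compounds was -1.99 for ACTA1 and -0.29 for SRF, both called by edgeR, which supports nothing here because the genes were chosen by such values. Whether the opposite positions relative to DMSO differ was not tested on values that the choice of genes did not use. For 8 listed genes the differences from DMSO had opposite signs under the compounds, and the difference between the compounds passed edgeR's quasi-likelihood test across all genes. With PQY23_1 minus PQY09, these log2 differences were 0.89 for AXL, 0.97 for CAPN2, 0.97 for SH3BGRL3, 0.87 for FHL2, 0.999 for NT5E, 0.62 for TGFB1I1, 0.70 for TMSB4X and 0.68 for TMSB10. Those of TGFB1I1 and TMSB4X lost the call in 9 and 8 of the 9 leave-outs. None of the 8 was called against DMSO under both compounds, so opposed effects are not shown. AXL was called only with PQY09. CAPN2, SH3BGRL3, FHL2 and NT5E were called only with PQY23_1, and with PQY09 stood at -0.10, -0.25, -0.25 and -0.23. TGFB1I1 (-0.07 with PQY09), TMSB4X and TMSB10 were called against DMSO under neither. Groups of 3 libraries were too small for a formal test of single outlying libraries, so each library was only left out in turn. As given above, PQY23_1 replicate 1 was low for both TAGLN2 and WWTR1.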

How the results depend on the processing

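Of the 30 differences of the 10 genes, the 10 that were called kept their sign in all 19 alternative settings. Of the 20 not called, 3 changed sign in some setting (ACTB, ACTG1 and TAGLN2 with PQY23_1). The members called numbered 2 to 3 over the leave-outs with PQY09, 0 to 2 with PQY23_1 and 2 to 4 between the compounds, and 2 to 5, 0 to 4 and 3 to 7 over the other settings. Over all genes, leave-outs gave 235 to 628 calls with PQY09 (574 in the full fit), 138 to 371 with PQY23_1 (514) and 222 to 397 between the compounds (448). Among listed genes they gave 7 to 15 (13), 5 to 12 (13) and 7 to 10 (12). DESeq2 called 1464, 1468 and 1251 of all genes, and 28 and 21 listed genes with PQY23_1 and between the compounds. Fitting only the groups compared gave 224 calls with PQY23_1, 7 of them listed, and 295 between the compounds. The cause was not tested. With the replicate block the calls were 342, 237 and 267 of all genes and 8, 7 and 7 of the listed ones. Same-numbered libraries deviated with correlations of 0.049 to 0.087, 0.054 to 0.130 and -0.264 to 0.078. Of 6 libraries, 6, 5 and 1 correlated best with their own number. The labels do not say whether the number marks a shared culture or day, and this was not tested. The 3 libraries per group and unknown fragments per count limit what can be called.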
